A study of Homo sapiens with 9 samples.

Results

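VHL-r is the VHL-binding moiety of the PROTAC-like molecule R4VPL3-1, given here without the RNF4-binding end. The comparison described here is that of A375R cells exposed to VHL-r alone with cells given the vehicle DMSO, 6 of the 9 libraries of the series, 3 for each condition. A375R is an established human melanoma line that resists the BRAF inhibitor PLX4032 and was grown in the presence of that drug, so all groups carried the drug as well. The VHL-r cells received 10 µM for 2 h. The remaining 3 libraries, of cells given 10 µM R4VPL3-1 for 2 h, entered the estimate of the spread and are set beside VHL-r where noted. GEO's labels name the controls only as WT and give no dose, and the series text says that the controls were DMSO. The column headers of control replicates 2 and 3 carry a 2 h mark and that of replicate 1 does not, so an effect of handling or of time in vehicle cannot be told apart from that of the compound for that library. All libraries come from 1 cell line and 1 time point, and the repeats are biological by the series text.

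The von Hippel-Lindau protein VHL is the substrate receptor of a cullin-RING ubiquitin ligase built on CUL2, elongins B and C and RBX1. Its best known substrates are the hypoxia-inducible factors HIF-1α and HIF-2α, which prolyl hydroxylases mark for VHL when oxygen is present. Small ligands that occupy the HIF site of VHL are used to bring the ligase to new targets, and A375 melanoma cells are driven by mutant BRAF through the MEK-ERK cascade, whose feedback inhibitors and early target genes turn over within minutes to hours.

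Reads per library lay between 26435568 and 32085626, with a median of 28165279, and the values are reads per gene divided by the authors' size factor of the library, called normalised counts below. Of the 62710 genes in the table, 15230 averaged 10 or more across the 9 libraries and were tested with limma on log2(normalised count + 1). A gene is called when its Benjamini-Hochberg adjusted p was at most 0.05, and all fold changes are on this scale, which understates the change of low genes.  The melanocyte and melanoma markers SOX10, PAX3, S100B and VIM were present in every library, with VIM between 90118 and 99208 in the 6 libraries compared, whereas the pigment genes TYR, TYRP1 and MLANA had means of 0.354, 6.38 and 0 and were not tested. The leukocyte markers PTPRC, CD3E and CD68 had means of 4.62, 1.39 and 0.334, and EPCAM, CDH1, PECAM1 and CDH5 had means of 5.82, 1.53, 5.88 and 4.75, all under the limit of 10. Some genes that every cell uses are also listed near 0, so such values are no evidence of absence. The 8 other markers of epithelial, endothelial and fibroblast cells (KRT5, KRT14, KRT18, VWF, DCN, LUM, PDGFRA and COL3A1) averaged 10 or more and were tested. Of these 1 was called, LUM at a log2 fold change of -0.52 (adjusted p = 0.0117). Its adjusted p over the alternatives ran from 0.00468 to 0.0821, the highest without VHL-r replicate 2. The number lower was then 0, it was 2 without R4VPL3-1 replicate 1 or 2 or VHL-r replicate 3, and 1 marker was called higher without DMSO replicate 3 or VHL-r replicate 1.

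VHL-r alone changed 3016 of the 15230 genes, 19.8% of those tested, with 1568 higher (10.3%) and 1448 lower (9.51%) than in DMSO. These shares over all tested genes are the ones to set beside each list count below. Most changes were small. The median log2 fold change was 0.44 over the genes called higher and -0.36 over those called lower, against -0.0045 over all tested genes, and changes of 2-fold or more were seen in 294 genes that rose and 144 that fell. Many of these lay at a low level, since 190 of the 294 and 67 of the 144 had a mean under 50. The groups did not overlap for 2924 of the 3016 called genes, beside 34.3% of all tested genes. At an unadjusted p under 0.05 there were 4609 genes. Without DMSO replicate 2 the genes called higher numbered 1187, and without VHL-r replicate 2 those called lower numbered 1080, the fewest among the fits that left out 1 library. In bulk RNA a lower level in each cell and fewer cells with the transcript cannot be told apart.

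**Figure D1:**
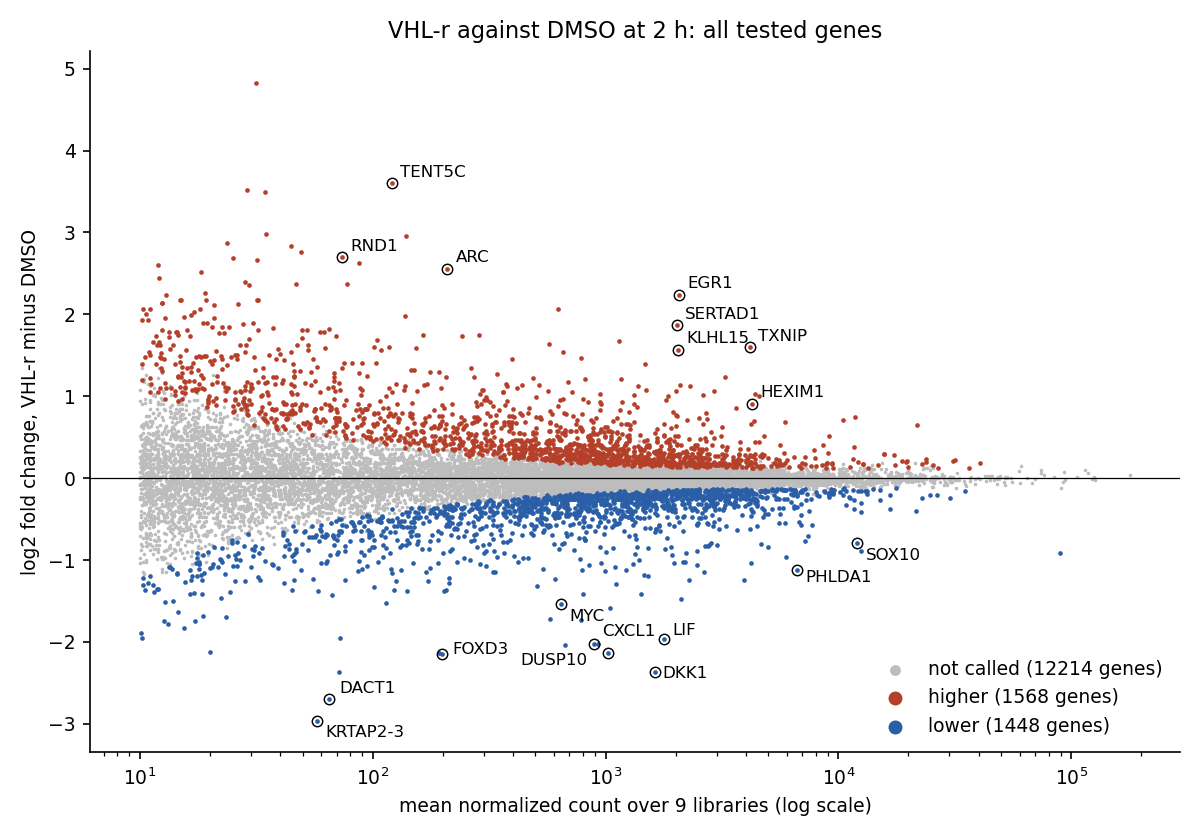
Log2 fold change in VHL-r against DMSO (vertical axis) by mean normalised count over the 9 libraries (horizontal axis, log scale) for the 15230 tested genes, with genes called by limma in red (1568 higher) and blue (1448 lower) and the rest in grey. Named genes are circled, and the changes of 2-fold or more that rise are mostly at the left, where 190 of 294 have a mean under 50.

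TENT5C had the largest rise among called genes with a gene symbol, separate groups and a mean of at least 50. TENT5C (ENSG00000183508, chromosome 1 of GRCh38 from 117606048 to 117628389), a noncanonical poly(A) polymerase that extends mRNA tails, was at 16.4, 12.8 and 14.2 normalised counts in DMSO replicates 1, 2 and 3 and at 185, 176 and 194 in VHL-r. The groups were far apart and tight within themselves, and the rise was 3.60 on the log2 scale (standard error 0.155, limma adjusted p = 1.31e-12). RND1 (ENSG00000172602, chromosome 12 from 48857145 to 48865870), whose product loosens actin stress fibres, had 16.4, 10.8 and 12.2 in DMSO and 78.1, 73.5 and 124 in VHL-r, a rise of 2.70 (standard error 0.222, adjusted p = 1.68e-08). VHL-r replicate 3 was the highest, and all 3 stood above DMSO, which the rule requires. ARC, an activity-regulated cytoskeletal gene best known from neurons, went from 58.1, 45.3 and 40.6 to 251, 275 and 336 (2.56, adjusted p = 5.77e-11). MSH4, a meiotic MutS homologue, went from 9.99, 21.6 and 23.3 to 108, 97.7 and 133 (2.63, adjusted p = 1.06e-07).

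SERTAD1 (ENSG00000197019, chromosome 19 from 40421589 to 40425992), which binds CDK4 and E2F complexes, combined a large rise with a high level. It was at 743, 652 and 750 in DMSO and 2425, 2475 and 2999 in VHL-r (1.87, standard error 0.0742, adjusted p = 4.03e-13). KLHL15 (ENSG00000174010, chromosome X from 23983716 to 24027186), a substrate adaptor of CUL3 ubiquitin ligases, was as sharply separated, with 843, 863 and 1004 against 2663, 2606 and 2757 (1.57, adjusted p = 4.03e-13). TXNIP, the thioredoxin-interacting protein that restrains glucose uptake, rose from 1210, 1665 and 1535 to 4483, 4419 and 4342 (1.60, adjusted p = 8.33e-12). SESN3, a sestrin that restrains mTORC1, rose from 133, 203 and 282 to 824, 812 and 845 (2.06, adjusted p = 6.47e-09). The DMSO libraries spread more than the VHL-r libraries for SESN3, and the lowest VHL-r value was above the highest DMSO value, which the rule requires. VAMP1, a vesicle SNARE, the germ cell gene GCNA and the laminin pseudogene LAMB2P1 were also among the 12 largest rises of genes with a mean of at least 50, at 1.75, 1.79 and 1.78. Larger rises were called in genes of lower mean, some of which are given below.

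A pair of antisense transcripts to the proteasome gene PSMD6 was among the 12 largest rises at a mean of at least 50. PSMD6-AS2 (chromosome 3 from 64004022 to 64012148) was at 49, 31.5 and 47.7 in DMSO and at 190, 172 and 144 in VHL-r (1.98, adjusted p = 1.38e-07). PSMD6-AS1 (chromosome 3 from 64011964 to 64016246) went from 10.9, 20.7 and 18.2 to 55, 75.6 and 49.2 (1.81, adjusted p = 1.77e-05). Both sets of VHL-r values lay above DMSO, which the rule for these 12 requires. PSMD6 itself (chromosome 3 from 64010550 to 64024010) was not called, with 5553, 5595 and 5500 in DMSO and 5574, 5405 and 5363 in VHL-r (-0.027, adjusted p = 0.714). By these coordinates both antisense genes overlap PSMD6, and the counting was strand-specific by the study's methods.

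Some of the steepest rises were of genes barely transcribed in DMSO, and these were picked after their values were seen. SOCS1 stood among them and is described with the JAK-STAT genes. MAFA, a pancreatic islet transcription factor, rose by 2.98 from a DMSO level of at most 6.89, the muscle glycogen phosphorylase PYGM by 2.87 from at most 6.08, the membrane metalloprotease MMP25 by 2.84 from at most 12.2, and POU3F1, a POU-domain factor of glia, by 2.76 from at most 21.6 (adjusted p = 1.59e-07, 1.81e-06, 6.07e-08 and 4.60e-05). These rises are to levels of 31.8 to 81.9 normalised counts.

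**Figure D2:**
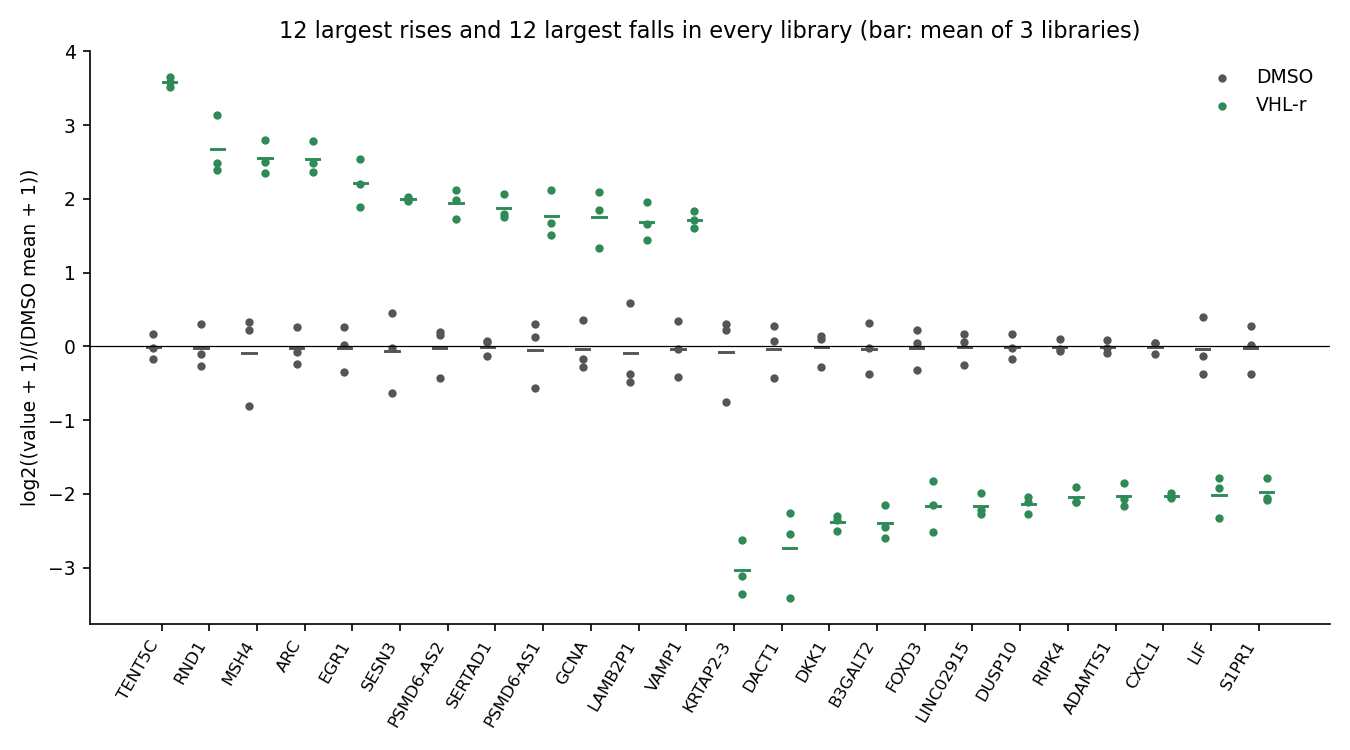
The 12 largest rises and 12 largest falls among called genes with separate groups and a mean of at least 50, as log2((value + 1)/(DMSO mean + 1)) on the vertical axis, 1 point for each DMSO library (grey) and VHL-r library (green) and a bar at the mean of 3. By that rule no green point overlaps the grey points of its gene, and the grey points of MSH4, SESN3, LAMB2P1 and KRTAP2-3 spread most widely.

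Among the falls, a pair of Wnt regulators stood near the top. DKK1 (ENSG00000107984, chromosome 10 from 52314281 to 52318042), a secreted inhibitor of Wnt co-receptors, was at 3977, 3858 and 2985 in DMSO and 731, 708 and 636 in VHL-r (-2.37, standard error 0.0875, adjusted p = 2.39e-13). DACT1, an intracellular Wnt regulator, fell from 182, 158 and 111 to 25, 30.5 and 13.3 (-2.70, adjusted p = 9.27e-07), with 6.1% of its 100-base windows shared with LINC01500. KRTAP2-3, a keratin-associated protein gene, fell furthest among called genes with a symbol, separate groups and a mean of at least 50. It went from 171, 161 and 81.1 to 15, 12.6 and 21.5 (-2.96, adjusted p = 1.15e-07). Of its 100-base windows, 34% occur in KRTAP2-1, KRTAP2-2 or KRTAP2-4, so its value is uncertain among these copies. DUSP10 (ENSG00000143507, chromosome 1 from 221701424 to 221742089), a phosphatase of p38 and JNK, fell from 1841, 2322 and 2028 to 428, 476 and 500 (-2.13, adjusted p = 2.39e-13). ADAMTS1 (ENSG00000154734, chromosome 21 from 26835755 to 26845409), a secreted metalloprotease, fell from 1739, 1962 and 1823 to 410, 437 and 508 (-2.03, adjusted p = 2.39e-13). For each of these genes every VHL-r library lay below every DMSO library, which the rule for the largest falls requires.

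RIPK4, a keratinocyte kinase linked to Wnt and NF-kB, fell from 1407, 1541 and 1379 to 333, 386 and 334 (-2.04, adjusted p = 2.29e-12). FOXD3, a forkhead factor of the neural crest, fell from 333, 484 and 427 to 72, 92.4 and 116 (-2.15, adjusted p = 4.74e-09). The sphingosine phosphate receptor S1PR1 was at 179, 150 and 114 and then at 34, 42 and 34.8 (-1.95, adjusted p = 3.26e-07). By the same rule none of these groups overlapped. B3GALT2, a galactosyltransferase, and the long noncoding RNA LINC02915 fell by 2.37 and 2.14 on the log2 scale. At the top of the abundance range, THBS1, the matrix glycoprotein thrombospondin 1, fell from 159051, 131149 and 110718 to 72137, 73776 and 65545 (-0.91, adjusted p = 8.56e-08). It was picked after its values were seen.

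The target of the compound was examined at the transcript level first. VHL (ENSG00000134086, chromosome 3 from 10141778 to 10153667) was at 1532, 1752 and 1823 normalised counts in DMSO and at 1757, 1794 and 1731 in VHL-r, and the groups overlapped (0.052, standard error 0.0606, adjusted p = 0.625). RNF4, the SUMO-targeted ubiquitin ligase that the full molecule was built to reach, was at 466, 383 and 372 against 433, 448 and 408 (0.084, adjusted p = 0.606). ELOC, CUL2 and RBX1, which belong to the VHL ligase, lay between -0.049 and -0.026 and were not called. Of the 15 tested genes of the VHL ligase and oxygen sensing, 3 were called higher and 2 lower, with a median of -0.022. Those called were 33.3% of the list, beside 19.8% of all tested genes. EGLN3, the HIF-inducible prolyl hydroxylase PHD3, rose from 7.26, 13.8 and 14.2 to 39, 33.6 and 29.7 (1.51, adjusted p = 4.13e-04). EPAS1, which encodes HIF-2α, rose from 99.9, 80.7 and 80.1 to 146, 134 and 168 (0.78, adjusted p = 7.72e-04). Neither gene's groups overlapped, though both stood at low levels. HIF1A went the other way, from 3477, 3162 and 3050 to 2810, 2953 and 2726 (-0.19, adjusted p = 0.0123). Over its alternatives the adjusted p of HIF1A ran from 0.00641 to 0.0969, the highest without DMSO replicate 1. The ubiquitin ligase genes SIAH1 and SIAH2, which act on prolyl hydroxylases, moved apart, SIAH1 at -0.51 (adjusted p = 8.10e-05) and SIAH2 at 0.22 (adjusted p = 0.0266, from 0.00486 to 0.0992 over its alternatives and highest without VHL-r replicate 1). Without DMSO replicate 1 or VHL-r replicate 3, 1 gene of the list was called lower. EGLN1 and EGLN2 are listed at means of 0.214 and 0 and were not tested.

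Of the 35 tested HIF target genes 9 rose and 2 fell, with a median log2 fold change of 0.091. These are 25.7% higher and 5.71% lower, beside 10.3% and 9.51% of all tested genes. SLC2A3, the glucose transporter GLUT3, rose from 854, 859 and 818 to 1303, 1351 and 1437 (0.69, adjusted p = 2.12e-08). KDM3A, a histone demethylase, rose from 2040, 2179 and 2288 to 3201, 3087 and 2996 (0.51, adjusted p = 5.57e-06). ANKRD37 and NDRG1 rose by 0.47 and 0.34 (adjusted p = 0.00483 and 5.82e-04), and PFKFB3, a glycolytic regulator, by 0.26 (adjusted p = 4.89e-04). Other members of the list were not called or fell. VEGFA was at 1758, 1732 and 1622 against 1519, 1558 and 1609 (-0.13, adjusted p = 0.149), SLC2A1 at -0.10, LDHA at -0.017 and BNIP3 at 0.12, none of them called. ADM, the vasodilator peptide adrenomedullin, fell from 596, 617 and 535 to 387, 325 and 450 (-0.60, adjusted p = 0.00102), and PFKFB4 fell by 0.56 on the log2 scale (adjusted p = 4.88e-05). In R4VPL3-1 against DMSO, which shares the controls, ANKRD37 stood at 1.94, BNIP3 at 0.66 and ADM at 0.30, and the direct comparison of R4VPL3-1 with VHL-r gave adjusted p = 2.97e-08, 1.45e-06 and 8.39e-05. Over all tested genes 1.87% were called in that direct comparison and 24.9% in R4VPL3-1 against DMSO.

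Immediate early genes moved in both directions. They encode transcription factors that are switched on within minutes of a stimulus, and 9 of the 24 tested rose and 7 fell, with a median of 0.10. EGR1 (ENSG00000120738, chromosome 5 from 138465479 to 138469303), a zinc finger factor induced through SRF and ERK, was at 728, 474 and 610 in DMSO and at 2241, 2797 and 3525 in VHL-r (2.24, standard error 0.13, adjusted p = 1.00e-10). FOS rose from 161, 122 and 191 to 423, 473 and 573 (1.64, adjusted p = 1.11e-07), JUNB from 2627, 2283 and 2377 to 3901, 4194 and 5163 (0.86, adjusted p = 1.11e-07), and IER5 from 1518, 1363 and 1441 to 3189, 3347 and 3665 (1.24, adjusted p = 7.04e-11). In EGR1, JUNB and IER5 the values of VHL-r replicate 3 were the highest of the 6. Other AP-1 genes were called in both directions. JUN went from 2301, 1813 and 1853 to 1195, 1064 and 1229 (-0.77, adjusted p = 5.13e-04), with a range of 4.19e-07 to 0.0811 over its alternatives and the call lost with limma's robust option. FOSL2 and FOSL1 fell, at -0.45 and -0.38 (adjusted p = 5.11e-05 and 0.00174, the latter from 3.42e-04 to 0.0819 over its alternatives and also lost with the robust option). JUND rose, at 0.41 (adjusted p = 0.00195, from 2.03e-04 to 0.0625 over its alternatives, the highest with limma's robust option). KLF6 fell from 2128, 1996 and 1810 to 843, 880 and 855 (-1.20, adjusted p = 2.07e-08).

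The 150 bases before the EGR1 start are shown because EGR1 rose most among the tested members of the list of immediate early transcription factors. They lie on the plus strand of GRCh38.p14 (RefSeq promoter table) at chr5:138465329-138465478. The capitals mark CArG boxes, the binding motif of SRF, searched as letters on either strand without regard to overlap with other motifs.
EGR1: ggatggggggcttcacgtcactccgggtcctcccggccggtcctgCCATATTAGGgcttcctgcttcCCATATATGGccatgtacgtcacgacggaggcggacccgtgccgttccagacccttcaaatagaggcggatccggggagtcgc
The stretch holds 2 of them, starting 105 and 83 bases before the start. Of 27305 promoters of 300 bases in the table, 1.29% hold a CArG box, of 10947 promoters of tested genes 1.09% do, of 1107 promoters of genes called higher 1.17% do, and of 1099 of genes called lower 1.82%.

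Most output and feedback genes of the ERK cascade fell, with 15 of 22 tested lower, 3 higher and a median log2 fold change of -0.38. PHLDA1 (ENSG00000139289, chromosome 12 from 76025447 to 76031776), a pleckstrin homology protein induced by ERK, was at 10972, 11316 and 11394 in DMSO and 5109, 5189 and 5214 in VHL-r (-1.12, standard error 0.045, adjusted p = 4.64e-13). Both groups were tight and far apart. The Sprouty genes, which restrain receptor signalling to RAS, fell together, SPRY2 from 7272, 7324 and 7214 to 4182, 4094 and 4218 (-0.80, adjusted p = 2.38e-09), SPRY4 by 0.64 and SPRY1 by 1.07 on the log2 scale. Of the MAP kinase phosphatases DUSP4 fell from 7630, 7631 and 7138 to 4037, 4317 and 4113 (-0.84, adjusted p = 3.67e-10). DUSP6, the phosphatase most specific to ERK, went from 7056, 5983 and 6036 to 4834, 4896 and 4618 (-0.41, adjusted p = 0.00217), with 1.41e-05 to 0.0824 over its alternatives, the highest with limma's robust option. CCND1, which encodes cyclin D1, fell by 0.40 on the log2 scale (adjusted p = 4.01e-05). The 3 that rose were ETV5 at 0.45, TRIB1 at 0.34 and DUSP5 at 0.34, so the ETS factor ETV5 and the nuclear phosphatase DUSP5 parted from the Sprouty genes. In R4VPL3-1 against DMSO, DUSP6 stood at -1.90, SPRY2 at -1.57 and PHLDA1 at -1.69, and R4VPL3-1 was below VHL-r for each (adjusted p = 5.66e-10, 2.04e-08 and 3.41e-08). TRIB1 was at -0.94 there (adjusted p = 6.57e-10 against VHL-r).

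**Figure D3:**
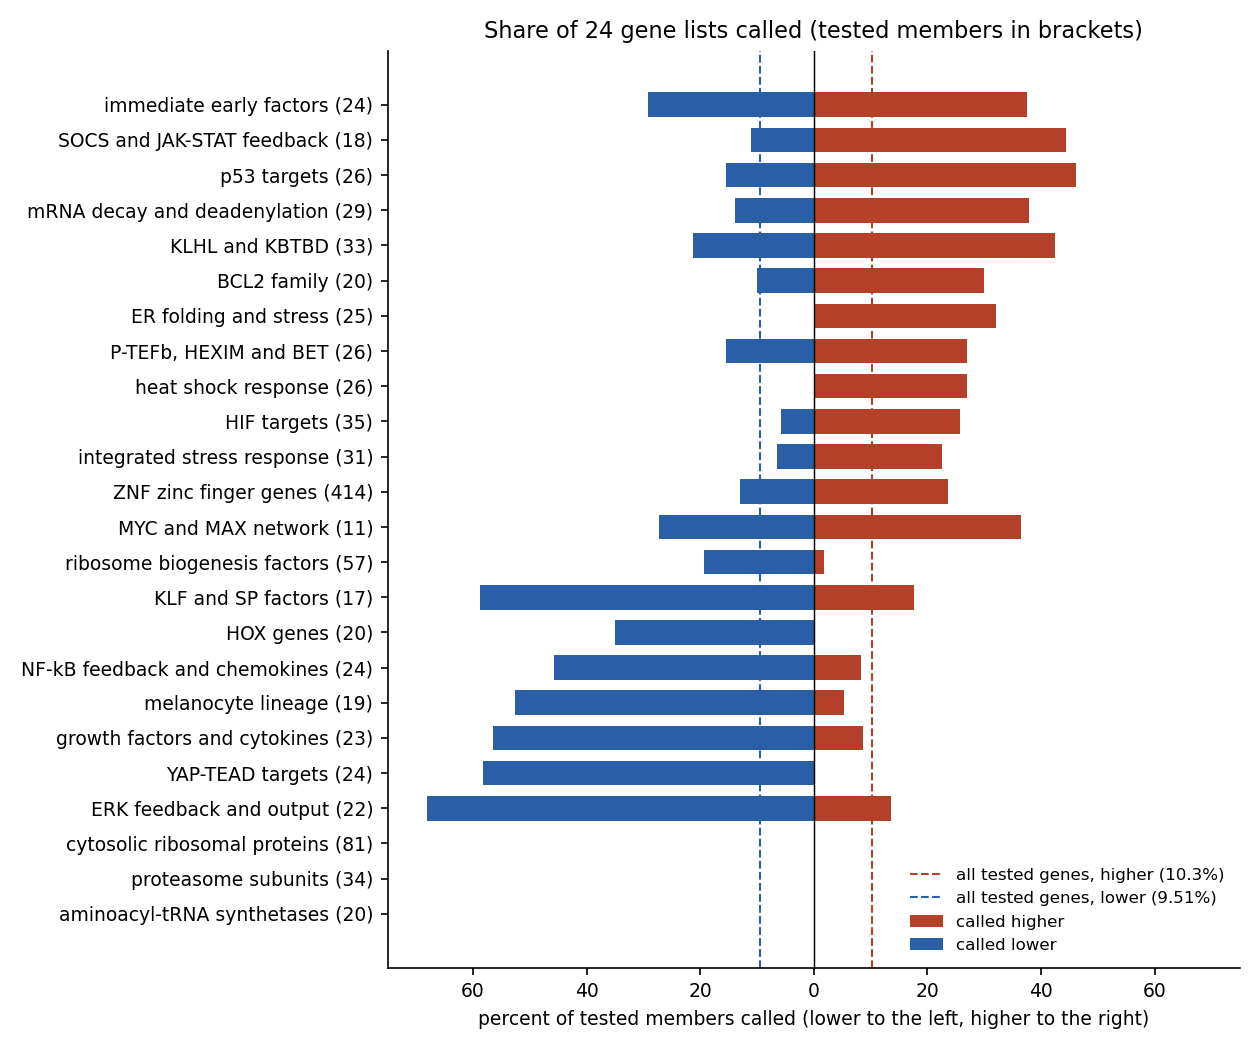
Percent of the tested members of 24 gene lists called higher (red, to the right) and lower (blue, to the left) in VHL-r against DMSO, with the number of tested members in brackets and dashed lines at the shares over all tested genes, 10.3% and 9.51%. ERK feedback, YAP-TEAD targets, growth factors and cytokines, the melanocyte lineage and NF-kB genes extend far to the left, p53 targets, SOCS and KLHL genes to the right, and the last 3 lists have no called member.

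Chemokines and inhibitors of NF-kB signalling were among the genes that fell. Of 24 tested genes of this list 11 fell and 2 rose, with a median of -0.24. CXCL1 (ENSG00000163739, chromosome 4 from 73869393 to 73871308), a neutrophil chemokine that melanoma cells secrete, was at 1965, 1953 and 1769 in DMSO and at 477, 455 and 458 in VHL-r (-2.03, standard error 0.0824, adjusted p = 4.75e-13). CXCL8, which encodes interleukin 8, fell from 1652, 1868 and 1678 to 746, 842 and 879 (-1.08, adjusted p = 3.14e-09). The related CXCL2 and CXCL3 were scarce, CXCL2 at 27.2, 48.2 and 44.6 against 18, 25.2 and 14.3 (-1.02, adjusted p = 0.0206) and CXCL3 at 20.9, 35.4 and 26.4 against 4, 16.8 and 12.3 (-1.40, adjusted p = 0.0162). Neither pair of groups overlapped, and at these counts both calls were lost under some alternatives, with adjusted p from 0.0107 to 0.116 for CXCL2 (highest without DMSO replicate 2) and from 0.00634 to 0.111 for CXCL3 (highest without VHL-r replicate 1). CXCL2 and CXCL3 share 5.34% and 3.27% of their 100-base windows with each other. TNFAIP3, the ubiquitin-editing enzyme A20 that ends NF-kB signalling, fell from 575, 524 and 553 to 256, 267 and 227 (-1.14, adjusted p = 1.43e-08), and BIRC3, an inhibitor of apoptosis protein, from 311, 331 and 251 to 141, 183 and 146 (-0.92, adjusted p = 1.83e-05). NFKBIE, an IκB protein, rose by 0.46 (adjusted p = 4.59e-04), and NFKBIA, the best known NF-kB feedback gene, was not called (0.19, adjusted p = 0.068). The other gene called higher, SOD2 at 0.15, had adjusted p = 0.0399 and 0.0264 to 0.151 over its alternatives, and was not called without DMSO replicate 1 or 3, R4VPL3-1 replicate 2 or any of the VHL-r replicates. The number higher was then 1, except without DMSO replicate 3, where it stayed at 2.

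The promoters of these 4 chemokine genes are shown because all 4 fell, and because each holds the same 9 letters. The stretches are the 150 bases before the start in the RefSeq promoter table (GRCh38.p14), CXCL1 at chr4:73869243-73869392 and CXCL8 at chr4:73740419-73740568 on the plus strand, CXCL2 at chr4:74099196-74099345 and CXCL3 at chr4:74038690-74038839 on the minus strand, and the capitals mark the NF-kB letters GGAATTTCC.
CXCL1: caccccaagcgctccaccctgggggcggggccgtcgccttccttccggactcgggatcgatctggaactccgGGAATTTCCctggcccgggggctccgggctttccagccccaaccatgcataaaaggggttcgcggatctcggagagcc
CXCL2: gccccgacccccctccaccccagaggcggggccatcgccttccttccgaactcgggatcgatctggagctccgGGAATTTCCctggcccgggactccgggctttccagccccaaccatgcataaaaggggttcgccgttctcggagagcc
CXCL3: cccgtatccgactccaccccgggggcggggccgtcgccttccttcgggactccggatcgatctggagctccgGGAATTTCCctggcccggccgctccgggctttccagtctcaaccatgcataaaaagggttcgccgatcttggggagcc
CXCL8: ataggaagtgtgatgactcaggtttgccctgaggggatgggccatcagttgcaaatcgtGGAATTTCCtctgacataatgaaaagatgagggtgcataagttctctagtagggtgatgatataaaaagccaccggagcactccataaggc
The letters begin 78, 77, 78 and 91 bases before the start of CXCL1, CXCL2, CXCL3 and CXCL8, and the first 3 stretches are alike over most of their length. On either strand GGAATTTCC was found in 0.472% of the 27305 promoters, in 0.466% of the 10947 promoters of tested genes, in 0.91% of those called lower and in 0.271% of those called higher, that is in 10 and 3 promoters. The 10 include the 4 promoters shown, which were chosen because they fell and hold these letters. That share was counted over all promoters of genes called lower, so showing these 4 adds no separate support to it.

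Other secreted ligands also fell. Of 23 tested growth factors and cytokines 13 fell and 2 rose, with a median of -0.35. LIF (ENSG00000128342, chromosome 22 from 30240453 to 30246759), an interleukin 6 family cytokine, was at 5051, 3526 and 2958 in DMSO and 1017, 1117 and 767 in VHL-r (-1.97, standard error 0.146, adjusted p = 3.42e-09). INHBA, the activin A subunit, fell from 2262, 1862 and 1485 to 605, 636 and 612 (-1.58, adjusted p = 2.92e-10). BDNF, the brain-derived neurotrophic factor, fell from 219, 162 and 124 to 68, 63 and 62.5 (-1.33, adjusted p = 9.35e-06). In these 3 genes DMSO replicate 1 was the highest library, and the lowest DMSO library was above every VHL-r library. EDN1, the endothelin peptide, was at 30, 21.6 and 26.4 and then at 8.01, 5.25 and 8.19 (-1.74, adjusted p = 0.00119), CSF2 at -1.25 (adjusted p = 0.00255) and TGFB2 at -0.76 (adjusted p = 0.00158). HBEGF, an EGF receptor ligand, rose from 626, 559 and 542 to 1201, 1118 and 1210 (1.03, adjusted p = 5.53e-10), and the ephrin EFNB2 rose by 0.66 (adjusted p = 1.83e-08).

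Target genes of YAP and TEAD, the effectors of the Hippo pathway that respond to cell shape and serum, fell in 14 of 24 tested members, and the other 10 were not called. The median was -0.22. ANKRD1, a nuclear ankyrin repeat protein, fell from 1510, 1733 and 1151 to 487, 405 and 416 (-1.73, adjusted p = 4.36e-10). The matricellular genes CCN1 and CCN2 stood at 13026, 9991 and 9510 against 6617, 6910 and 6190 (-0.71, adjusted p = 1.85e-06) and at 9734, 7599 and 7190 against 5464, 5737 and 5410 (-0.55, adjusted p = 5.65e-05). For both, DMSO replicate 1 was the highest and no library overlapped. F3, the coagulation tissue factor, and the Golgi protein gene FJX1 fell, at -1.26 and -1.06 (adjusted p = 1.06e-06 and 6.79e-09). TGFB2 belongs to this list and to the ligands. Among 22 tested genes of the TGF-β, BMP and Notch responses 3 rose and 5 fell, with a median of -0.13. Those called were 36.4% of this list, beside 19.8% of all tested genes. ID2, an inhibitor of helix-loop-helix factors and a BMP target, rose from 231, 183 and 241 to 437, 476 and 537 (1.15, adjusted p = 1.15e-07), whereas HES1, the main Notch target, fell by 0.43 (adjusted p = 0.00336) and BAMBI, a decoy BMP receptor, by 0.55 on the log2 scale. HES1 was at -1.91 in R4VPL3-1 against DMSO and below its VHL-r level (adjusted p = 2.85e-09).

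Several feedback genes of JAK-STAT signalling rose. SOCS proteins and CISH are induced by STAT factors and shut off cytokine receptors, and 8 of the 18 tested genes of the list rose and 2 fell, with a median of 0.13. SOCS1 (ENSG00000185338, chromosome 16 from 11254417 to 11256204) was at 5.45, 0 and 5.07 in DMSO and at 42, 42 and 30.7 in VHL-r (3.52, standard error 0.487, adjusted p = 1.87e-05). The DMSO values are a few reads each, so the size of this change is loosely set. CISH was at 13.6, 18.7 and 21.3 and then at 26, 49.4 and 53.3 (1.17, adjusted p = 0.00354), the VHL-r libraries differing among themselves but all above DMSO. SOCS3 rose from 609, 528 and 544 to 754, 757 and 920 (0.53, adjusted p = 1.60e-04), the STAT5-induced kinase gene PIM2 from 894, 778 and 880 to 1586, 1585 and 1591 (0.90, adjusted p = 5.58e-10), and IRF1 and STAT2 both by 0.57 (adjusted p = 1.93e-06 and 1.04e-05). SOCS2, which restrains growth hormone signalling, fell from 243, 258 and 250 to 136, 153 and 122 (-0.87, adjusted p = 3.06e-05), and SOCS6 fell by 0.39 on the log2 scale (adjusted p = 7.95e-05).

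The CISH promoter is shown because it holds STAT letters, TTCNNNGAA in capitals, searched on either strand. The stretch is the 150 bases before the start on the minus strand at chr3:50611775-50611924 of GRCh38.p14, from the RefSeq promoter table.
CISH: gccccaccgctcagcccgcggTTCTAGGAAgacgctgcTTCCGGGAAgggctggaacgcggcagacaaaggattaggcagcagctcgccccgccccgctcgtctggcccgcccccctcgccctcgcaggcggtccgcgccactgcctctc
The 2 matches begin 129 and 112 bases before the start. TTCNNNGAA was found in 7.88% of all 27305 promoters, in 6.33% of those of tested genes, in 5.42% of those called higher and in 7.46% of those called lower.

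MYC (chromosome 8 from 127735434 to 127742951), the growth-promoting helix-loop-helix factor, fell from 1253, 1254 and 1049 to 379, 430 and 408 (-1.54, adjusted p = 1.86e-10). MXD1, which competes with MYC for their partner MAX, rose from 540, 513 and 533 to 1230, 1236 and 1196 (1.21, adjusted p = 2.51e-09). MAX was not called (0.085, adjusted p = 0.265), and MGA, a further MAX partner, fell by 0.48 on the log2 scale (adjusted p = 2.67e-05). Of the 11 tested genes of the network 4 rose and 3 fell, and 2 rose without DMSO replicate 2 or without VHL-r replicate 3. Nucleolar factors of ribosome biogenesis, many of them MYC targets, had changes of small size, with 11 of 57 tested lower, 1 higher and a median of -0.049. These are 19.3% lower and 1.75% higher, beside 9.51% and 10.3% of all tested genes. POLR1B, a subunit of RNA polymerase I, was at -0.30 (adjusted p = 6.81e-05), RRS1 at -0.28 (adjusted p = 8.45e-04) and NOP56 at 0.17 (adjusted p = 0.00632). The number lower was 4 without DMSO replicate 1 or VHL-r replicate 2, 6 without DMSO replicate 2 and 7 without VHL-r replicate 1, and the number higher was 2 without DMSO replicate 1 or VHL-r replicate 3.

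Genes around the elongation factor P-TEFb, the CDK9 and cyclin T kinase that releases paused RNA polymerase II, rose in 7 of 26 tested members and fell in 4, with a median of 0.051. HEXIM1 (chromosome 17 from 45148475 to 45152099), the protein that holds P-TEFb inactive, rose from 2597, 2531 and 2848 to 4808, 4942 and 5270 (0.91, standard error 0.0511, adjusted p = 6.11e-11). BRD2, a BET bromodomain protein that reads acetylated histones, rose from 7194, 6725 and 7253 to 11668, 11096 and 11868 (0.71, adjusted p = 1.33e-09). Both genes were tightly grouped. CCNT1 rose by 0.26 (adjusted p = 4.35e-04), and CDK9 fell from 1786, 1640 and 1848 to 1414, 1401 and 1462 (-0.30, adjusted p = 5.06e-04). The count of 4 lower was 1 without VHL-r replicate 1 and 2 without DMSO replicate 1, 2 or 3 or VHL-r replicate 3. In R4VPL3-1 against DMSO, HEXIM1, BRD2 and MYC stood at 0.95, 0.85 and -1.77, and none of the 3 passed the test between the compounds (adjusted p = 0.912, 0.21 and 0.37). A test that does not pass does not show that the levels were equal.

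Of 17 tested KLF and SP factors 10 fell and 3 rose, with a median of -0.17. KLF9, a glucocorticoid-induced factor, fell from 3292, 3672 and 3604 to 1698, 1774 and 1723 (-1.02, adjusted p = 7.49e-11), and KLF7 from 734, 685 and 573 to 330, 337 and 344 (-0.97, adjusted p = 1.34e-07). SP4 rose by 0.52. Of 20 tested HOX genes, which set the body axis, 7 fell and the other 13 were not called, with a median of -0.21. The number was 3 without DMSO replicate 1 and 4 without DMSO replicate 2 or VHL-r replicate 2. HOXB2 led them in level, from 2158, 1976 and 1715 to 886, 924 and 869 (-1.12, adjusted p = 4.43e-10). The zinc finger oncogene ZNF217 fell from 3720, 3357 and 3070 to 1662, 1623 and 1668 (-1.03, adjusted p = 1.90e-10), and PRDM1, the repressor BLIMP1, from 56.3, 44.3 and 34.5 to 9.01, 12.6 and 7.17 (-2.12, adjusted p = 8.77e-05). ZNF217 and PRDM1 were picked after their values were seen.

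Several transcription factors of the melanocyte lineage fell. SOX10 and MITF specify melanocytes, TFAP2 factors act with them at pigment genes, and ZEB2 marks the differentiated melanoma state. SOX10 fell from 17699, 17007 and 17935 to 9133, 10250 and 11216 (-0.79, adjusted p = 3.14e-09), and MITF from 1497, 1676 and 1994 to 983, 1022 and 1136 (-0.71, adjusted p = 4.02e-05). The 2 groups lay apart for both genes, with DMSO replicate 3 and VHL-r replicate 3 the highest of their groups. TFAP2C fell from 7571, 7015 and 6280 to 3476, 3603 and 3087 (-1.04, adjusted p = 2.23e-10), and TFAP2B and ZEB2 fell as well, at -1.06 and -0.93 (adjusted p = 6.68e-05 and 2.53e-09). TFAP2A was not called (-0.15, adjusted p = 0.212). In all, 10 of the 19 tested genes of the lineage and of melanoma states fell and 1 rose, PAX3 at 0.24, with a median of -0.17. The PAX3 call had adjusted p = 0.0226, from 0.0172 to 0.112 over its alternatives, and no gene of the list was called higher without DMSO replicate 1 or 2 or VHL-r replicate 2 or 3, and 2 were without VHL-r replicate 1. The marker S100B was at -0.12 and was not called.

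Genes that shorten poly(A) tails or destabilise mRNA rose in 11 of 29 tested members and fell in 4, with a median of 0.064. PNRC1, a decapping coactivator, rose from 212, 272 and 371 to 747, 711 and 869 (1.47, adjusted p = 8.11e-08). ZFP36, the AU-rich element binding protein tristetraprolin, rose from 625, 538 and 578 to 1047, 1055 and 1209 (0.93, adjusted p = 1.03e-07). The BTG and TOB proteins, which recruit the CCR4-NOT deadenylase, rose in 4 genes, TOB1 by 0.81, TOB2 by 0.77, BTG2 by 0.76 and BTG1 by 0.33 (adjusted p = 3.09e-08, 2.35e-08, 8.52e-08 and 2.25e-04). BTG3, which was not on the list and was looked up after its family's values were seen, fell, at -0.27 (adjusted p = 0.0028). ZFP36L1, a paralogue of ZFP36, fell from 1822, 1700 and 1773 to 1088, 1157 and 1341 (-0.57, adjusted p = 3.64e-06). The clock genes PER1 and CRY2 rose as well, PER1 from 635, 523 and 649 to 1021, 1125 and 1296 (0.93, adjusted p = 1.41e-07) and CRY2 from 169, 191 and 219 to 343, 384 and 374 (0.93, adjusted p = 1.51e-06). With NFIL3 and BHLHE40 these were 4 of 20 tested clock genes, 20% beside the 19.8% of all genes, and the other 16 were not called, 1 of them being called lower without DMSO replicate 3. BHLHE40, at 0.34, had adjusted p = 0.0154 and 0.00101 to 0.126 over its alternatives, the highest with limma's robust option.

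Of 26 tested p53 target genes 12 rose and 4 fell, with a median of 0.14. SESN2, a sestrin shared with the integrated stress response, rose from 565, 604 and 632 to 1467, 1504 and 1763 (1.39, adjusted p = 2.43e-11). CDKN1A, the cell cycle inhibitor p21, rose from 3532, 3215 and 3580 to 4066, 4294 and 4792 (0.35, adjusted p = 1.01e-04). MDM2, the p53 ligase and a core p53 target, fell by 0.22 (adjusted p = 0.00379), and PLK2, a polo-like kinase, fell from 4364, 4737 and 4086 to 1875, 1979 and 2071 (-1.15, adjusted p = 2.43e-11). The groups did not overlap for any of these 4 genes, and members of the list were called in opposite directions. In the BCL2 family 6 of 20 rose and 2 fell, with a median of 0.045. BCL2L11, which encodes the pro-apoptotic BH3 protein BIM, rose from 275, 283 and 291 to 821, 726 and 937 (1.54, adjusted p = 7.04e-11). The BH3 genes PMAIP1 and BBC3 rose by 0.74 and 0.61 (adjusted p = 2.34e-08 and 5.56e-04), the anti-apoptotic MCL1 by 0.28 (adjusted p = 1.01e-04), and BCL2L1, which encodes BCL-XL, fell by 0.40 on the log2 scale (adjusted p = 1.88e-04). The other lower gene, HRK at -0.68, had adjusted p = 0.0483, from 0.0436 to 0.19 over its alternatives. Its call was lost with edgeR, DESeq2, TMM and upper quartile scaling, without the filter on low values, in the fit of 6 libraries and without DMSO replicate 1, and 1 gene of the list was called lower without DMSO replicate 2 or 3, VHL-r replicate 1 or 2 or R4VPL3-1 replicate 1 or 2.

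Of the G1 cyclins, kinases and inhibitors 3 of 18 rose and 5 fell, among them CDKN1B, the inhibitor p27, from 1075, 1339 and 1159 to 795, 819 and 767 (-0.58, adjusted p = 5.42e-06). Those called were 44.4% of the 18, beside 19.8% of all tested genes. The number higher was 5 without VHL-r replicate 3. The 25 tested genes of S phase had a median of -0.022 and the 26 of G2 and mitosis a median of 0.057.

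Stress programmes of protein folding rose to a limited extent. In the endoplasmic reticulum list 8 of 25 tested genes rose and the other 17 were not called, with a median of 0.085. ERN1, the stress sensor IRE1α, rose from 175, 160 and 202 to 498, 461 and 521 (1.46, adjusted p = 4.16e-10), HERPUD1, a component of the degradation machinery, from 1327, 1302 and 1421 to 2531, 2659 and 2965 (1.01, adjusted p = 1.45e-10), and the co-chaperone DNAJB9 from 416, 421 and 443 to 719, 666 and 717 (0.71, adjusted p = 8.42e-08). The central chaperone HSPA5 rose by 0.21 (adjusted p = 0.00293). The 150 bases before the HSPA5 start, on the minus strand at chr9:125241344-125241493 of GRCh38.p14 from the RefSeq promoter table, are shown since HSPA5 is the reference gene of the list, with the endoplasmic reticulum stress element in capitals.
HSPA5: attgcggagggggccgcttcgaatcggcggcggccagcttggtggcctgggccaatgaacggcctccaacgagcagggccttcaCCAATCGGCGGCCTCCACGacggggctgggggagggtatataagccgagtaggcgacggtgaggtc
The element begins 66 bases before the start, and on either strand it was found in 0.0806% of all promoters, 0.119% of those of tested genes and 0.361% of those called higher, which is 4 promoters. HSPA5 is among these 4.

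In the heat shock list 7 of 26 tested genes rose and the other 19 were not called, with a median of 0.072. That is 26.9% higher, beside 10.3% of all tested genes. DNAJB1, the HSP40 partner of HSP70, rose from 6751, 6640 and 6348 to 9896, 10267 and 10904 (0.65, adjusted p = 4.19e-06). HSPA1B and HSPA1A, the inducible HSP70 genes, rose by 1.12 and 0.69 (adjusted p = 2.29e-07 and 6.50e-06). They share 72.8% and 69.5% of their 100-base windows, so the split between them is uncertain. HSPA8 and HSP90AA1 were not called (0.10 and 0.068). The full molecule gave far larger values for the same genes, with HSPA1B at 5.14, HSPA1A at 4.72 and DNAJB1 at 2.86 in R4VPL3-1 against DMSO, and the direct comparison with VHL-r gave adjusted p = 8.37e-16, 1.83e-17 and 1.14e-13. Without VHL-r replicate 3, 1 gene of the list was called lower.

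Of 31 tested genes of the integrated stress response, in which ATF4 is translated under stress, 7 rose and 2 fell, with a median of 0.037. Those called were 29% of the list, beside 19.8% of all tested genes. CHAC1, a glutathione-degrading enzyme, rose from 146, 114 and 110 to 205, 253 and 249 (0.94, adjusted p = 1.58e-04), CTH by 0.75, DDIT3 by 0.48 and ATF4 itself by 0.25 (adjusted p = 6.48e-05, 0.00392 and 1.80e-04). DDIT4, the mTORC1 inhibitor REDD1, fell from 3215, 3355 and 3226 to 2073, 2392 and 2318 (-0.53, adjusted p = 0.00477). Its adjusted p ran from 3.13e-07 to 0.158 over the alternatives, the highest with limma's robust option, and in R4VPL3-1 against DMSO it stood at 2.14 (adjusted p = 1.15e-11 between the compounds). STC2 fell by 0.75 on the log2 scale (adjusted p = 3.81e-05). Without DMSO replicate 3, 4 genes of the list were called lower. ASNS, a main ATF4 target, is listed at 0 in all libraries.

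**Figure D4:**
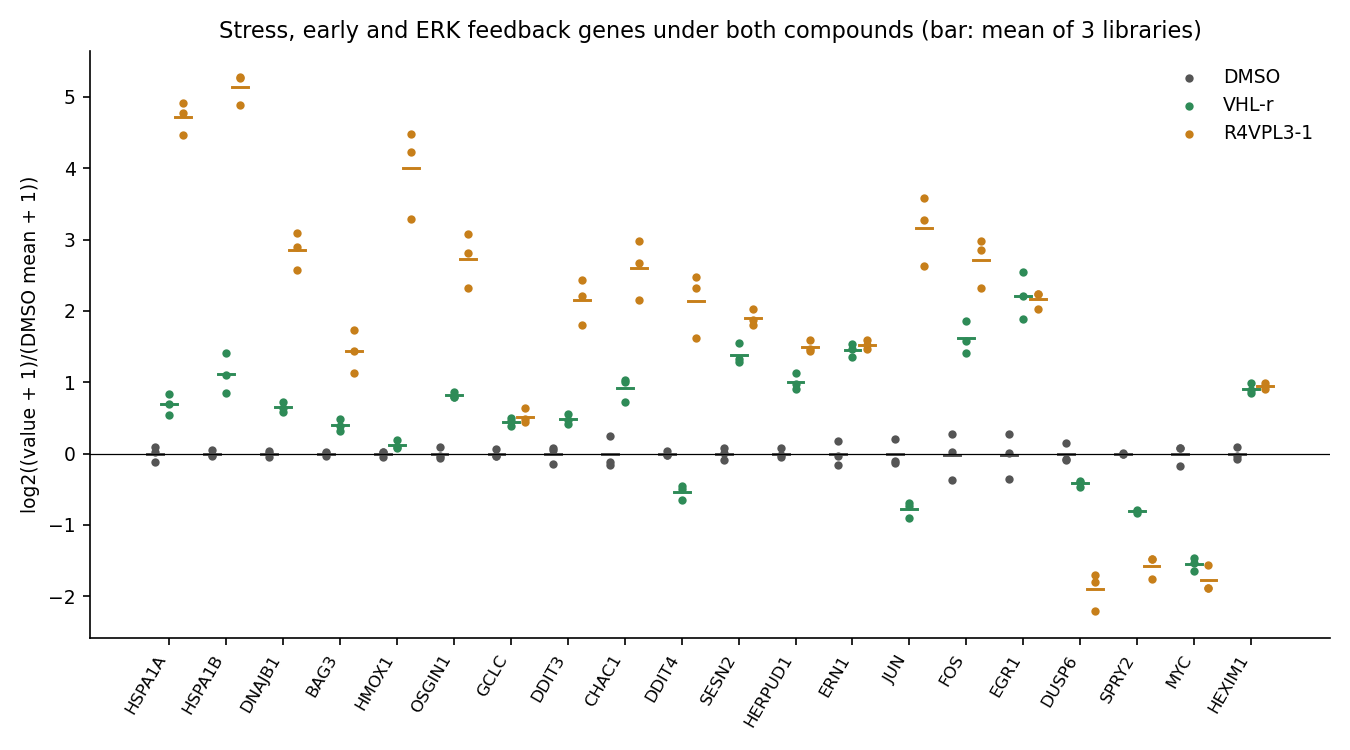
Stress, early response and ERK feedback genes in every library as log2((value + 1)/(DMSO mean + 1)) on the vertical axis, with DMSO in grey, VHL-r in green and R4VPL3-1 in orange, 3 points for each group and a bar at their mean. HSPA1A, HSPA1B, DNAJB1, HMOX1 and OSGIN1 are much higher in orange than in green, DDIT4 and JUN lie on opposite sides of the DMSO line, and EGR1, ERN1, MYC and HEXIM1 lie close together in both compounds.

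Of 28 tested NRF2 targets 4 rose and the other 24 were not called, with a median of 0.032. The 4 are 14.3% of the list, beside 19.8% of all genes called and 10.3% called higher. OSGIN1 rose from 173, 176 and 194 to 314, 330 and 315 (0.82, adjusted p = 6.81e-05) and GCLC, the catalytic subunit of glutathione synthesis, from 1509, 1619 and 1514 to 2198, 2119 and 2025 (0.45, adjusted p = 6.81e-06). HMOX1, heme oxygenase 1, was at 618, 621 and 593 against 644, 695 and 649 and was not called (0.12, standard error 0.171, adjusted p = 0.709), although the groups did not overlap. Its standard error draws on the spread within all 9 libraries, those of R4VPL3-1 among them. In R4VPL3-1 against DMSO it stood at 4.00 (adjusted p = 3.27e-12 against VHL-r). Without DMSO replicate 1 or VHL-r replicate 3, 1 NRF2 target was called lower. NQO1 was not called (0.12, adjusted p = 0.0936). Of 40 tested ferroptosis genes 4 rose and 3 fell, 17.5% beside the 19.8% of all genes, and GPX4, the lipid peroxide reductase, was at 2316, 2174 and 2215 against 2152, 2162 and 2562 (0.032, adjusted p = 0.786). In cholesterol synthesis and uptake 3 of 24 rose and 2 fell, 20.8% beside the 19.8% of all genes. INSIG1, the sterol sensor partner, rose from 848, 881 and 921 to 1297, 1437 and 1471 (0.66, adjusted p = 5.79e-07).

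Genes of ubiquitin ligases were examined since VHL-r occupies one. Of 33 tested KLHL and KBTBD genes, whose proteins carry substrates to CUL3, 14 rose and 7 fell, 63.6% of the family, with a median of 0.12. Besides KLHL15, KLHL24 rose from 158, 206 and 250 to 419, 429 and 474 (1.13, adjusted p = 2.69e-06) and KLHL28 from 382, 410 and 391 to 804, 755 and 748 (0.96, adjusted p = 1.57e-08). The number lower was 3 without VHL-r replicate 2 and 4 without DMSO replicate 2 or 3. Of 66 RNF-named genes 28.8% were called (10 higher and 9 lower) and of 42 TRIM genes 38.1% (8 and 8). Over all tested genes 19.8% were called. The medians of 55 F-box genes and 44 USP deubiquitinases were -0.0015 and -0.034. Of 20 DUSP phosphatases 3 rose and 4 fell (35% called), with a median of -0.036. Among 20 ubiquitin and SUMO factors that the study names, 2 were called, PIAS3 at 0.27 and SUMO3 at -0.16. The adjusted p of SUMO3 was 0.0234, from 0.0109 to 0.0924 over its alternatives, and it was not called without DMSO replicate 1 or 2 or VHL-r replicate 1 or 3, while 2 genes were called higher without VHL-r replicate 3.

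In several large constitutive complexes no member passed the test. Of 81 tested cytosolic ribosomal protein genes, 34 proteasome subunits and 20 aminoacyl-tRNA synthetases none was called by limma, by edgeR or by DESeq2, and none had an unadjusted p under 0.05. Their medians were -0.014, -0.033 and -0.018. The 13 tested mitochondrially encoded genes likewise had 0 calls by all 3 tools and 0 at an unadjusted p under 0.05, with a median of -0.0075, and 1 was called lower without VHL-r replicate 2. Of 66 nuclear OXPHOS genes 1 was called and of 69 mitochondrial ribosomal protein genes 6 were, 1 higher and 5 lower. Without DMSO replicate 1 or VHL-r replicate 1 the 5 were 3, the 1 higher mitochondrial ribosomal gene was 0 without these or VHL-r replicate 2, and the 1 OXPHOS gene was 0 without DMSO replicate 1 or 2 or VHL-r replicate 1 or 3. In 17 further lists and families, among them SLC transporters, collagens, integrins, kinesins and initiation factors, 6.25% to 30% of the members were called, and the medians lay between -0.12 and 0.10. The share over all tested genes was 19.8%.

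ZNF-named zinc finger genes, many of which lie in clusters on chromosome 19, were called in 98 higher and 54 lower of 414 tested, 23.7% and 13%, with a median of 0.059. Chromosome 19 held the largest share of protein-coding genes called higher, 15.7% of 886, beside 10.6% of the 12499 tested protein-coding genes. Among the noncoding classes, divergent transcripts named with -DT were called lower in 21 (9.01%) and higher in 5 (2.15%) of 233, with a median of -0.10, antisense transcripts named with -AS in 35 (7.25%) and 40 (8.28%) of 483, with a median of -0.069, and LINC-named RNAs in 34 (11.2%) and 26 (8.55%) of 304, with a median of -0.07. Over all tested genes 9.51% were called lower and 10.3% higher, and over the 2316 tested long noncoding RNAs 7.77% and 9.2%. The 5 divergent transcripts called higher were 3 without DMSO replicate 1 or 2 and 10 without DMSO replicate 3, and the 35 antisense transcripts called lower were 23 without DMSO replicate 3. MIR222HG, the host of miR-221 and miR-222, fell from 370, 466 and 351 to 208, 242 and 139 (-1.03, adjusted p = 5.29e-05). The replication-dependent histone genes that poly(A) selection retains gave 2 higher of 15 tested, H2BC26 at 1.48 and H2BC18 at 1.46, and 1 without DMSO replicate 1 or VHL-r replicate 3. The adjusted p of H2BC18 was 0.0163, from 0.00526 to 0.0644 over its alternatives, the highest without DMSO replicate 1.

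The share of called genes differed by gene structure. Of 247 tested protein-coding genes with a single exon in the Ensembl canonical transcript, 28.7% were called lower and 11.7% higher. With 2 to 3 exons (1261 genes) these shares were 18.8% and 13.3%, with 4 to 7 (3444 genes) 10.7% and 12.3%, with 8 to 15 (4419 genes) 8.55% and 9.59%, and with 16 or more (3121 genes) 6.44% and 8.78%. The share called lower thus fell by class while that called higher moved less. Median levels rose with the number of exons, from 327 normalised counts for 1 exon to 1258 for 16 or more, and their part in these shares was not tested. By genomic span, 27.5% of the 910 genes under 5 kb were called and 11.5% of the 1126 genes over 200 kb. Genes are not independent replicates, so these shares are given without a test.

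**Figure D5:**
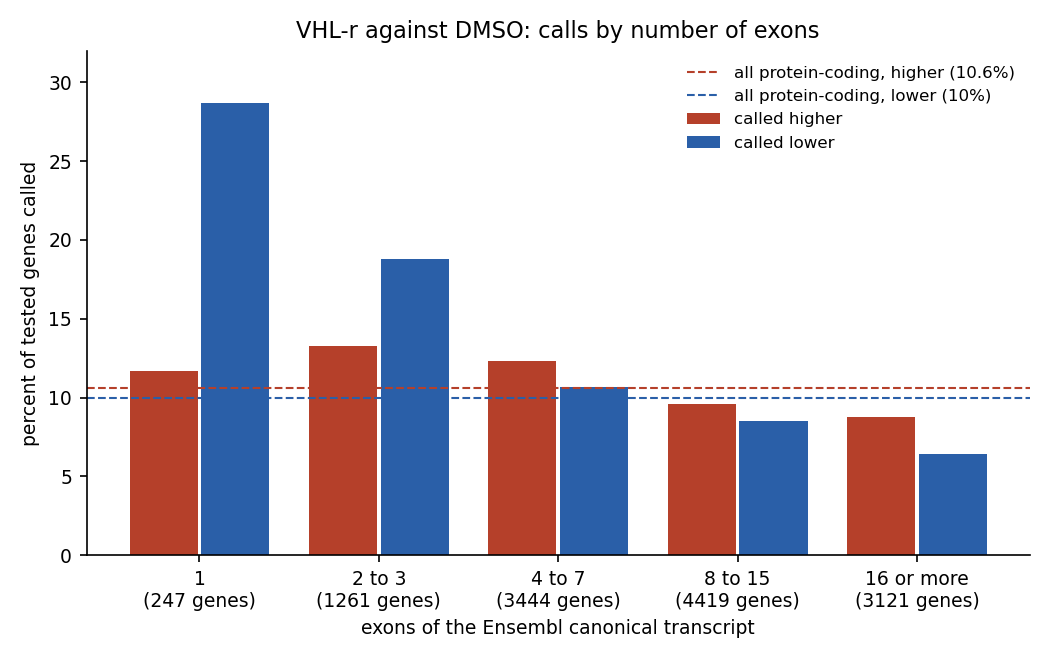
Percent of tested protein-coding genes called higher (red) and lower (blue) in VHL-r against DMSO by the number of exons of the Ensembl canonical transcript, with the number of genes in brackets and dashed lines at the shares over all protein-coding genes. Single-exon genes have the tallest blue bar at 28.7%, and genes of 16 or more exons the shortest at 6.44%.

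Other motif letters were counted in the same 300-base promoters. The CRE letters TGACGTCA occurred in 3.32% of tested, 3.16% of higher and 3% of lower genes, and the AP-1 letters TGANTCA in 4.8%, 4.52% and 6.92%. The heat shock element occurred in 0.311%, 0.271% and 0.182%, and the TEAD letters ACATTCCA in 0.612%, 0.632% and 0.728%. The TATA box letters TATAAA occurred in 5.86%, 8.49% and 6.92%, and the hypoxia response core ACGTG in 26.5%, 25.5% and 27.7%. Over all 27305 promoters the shares were 1.98%, 7.76%, 0.487%, 1.17%, 12% and 21.6%. All were searched on both strands, and a match is a run of letters and not evidence of binding.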

How the data were processed

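By the study's methods poly(A) RNA of A375R cells gave directional single-end libraries, and they name STAR for alignment to GRCh38, htseq-count and DESeq2. The authors deposited a normalized signal, reads per gene divided by the DESeq2 size factor of each library (version 1.36.0 in the submitters' processing notes), with 2 decimals. Some genes that every cell uses are listed at or near 0 (NEDD8, ALDOA, EGLN1), so a 0 here is no evidence of absence. Size factors were between 0.9341 and 1.1012, and multiplying the values by them gave whole reads for 100% of the values above 0 (tolerance 0.0051). The main test was limma (3.58.1, R 4.3.3, trend option) on log2(value + 1) over genes averaging 10 or more, a single-factor fit of all 9 libraries. The 3 against 3 libraries would allow no exact permutation p below 0.1 for a single gene. Replicates differed by more than counting noise (chi-square of 3.55 to 7.84 per gene between libraries of a group). On simulated data with 200 genes changed 2-fold the fit recovered 172, and 13 of its 185 calls (7.03%) were false. The simulation held no smaller changes and no replicate effect. The called genes had a median absolute log2 fold change of 0.40, so its rates do not describe most of the calls reported here.

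The lists (35 by hand, 30 by gene name) and named genes were chosen with earlier results of these data known: the 12 largest rises and falls among called, separate genes with a symbol and a mean of at least 50, the 10 lowest p, and list members. Genes named outside this rule are said to be so. In all, 75 list members had a mean under 10. Exons came from GENCODE 44 (15221 of 15230 tested genes matched by identifier), promoters from the RefSeq table (10947 matched by symbol), and shared windows from GENCODE transcripts. Deviations from the group means correlated at -0.00559 to 0.121 between same-numbered libraries and at -0.148 to 0.0982 between differently numbered ones. On the third axis of a principal component analysis, replicate 3 was the highest library of DMSO (16.2), VHL-r (10.3) and R4VPL3-1 (14.1). A weak pairing by replicate number is thus left undecided, and the main fit had no term for it. Alternatives were edgeR (4.0.16) and DESeq2 (1.42.0) on recovered reads, other pseudocounts, filters and scalings, limma's robust option, a block, fewer libraries and a stricter threshold. Results on items withheld from this text are not reported here.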

Additional observations from a re-analysis of the deposited data

How the results depend on the processing

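The adjusted p limit of 0.01 moved the totals to 1003 higher and 882 lower genes. Leaving out 1 library at a time gave 1187 to 1641 higher and 1080 to 1560 lower, and an arm left with 2 libraries drew on the spread of all groups. DESeq2 gave 1426 and 1336, edgeR 1593 and 1441, and the upper quartile scaling 1655 and 1376, the widest shift of the split by scaling. Same-numbered libraries correlated at -0.00559 to 0.121 and differently numbered ones at -0.148 to 0.0982, so a weak pairing is left undecided. The replicate block gave 1767 higher and 1684 lower, more than the main fit. Of the 162 called genes named here, 18 lost the call under at least 1 alternative other than the stricter limit and the block, and 0 changed sign. Of the uncalled genes 2 changed sign when a library was left out, VHL (-0.022 to 0.10) and GPX4 (-0.051 to 0.075), and the cause was not tested. Over 65 lists and 20 alternatives, 124 of 1300 counts of higher genes, 101 of 1300 counts of lower genes and 86 of 1300 medians moved beyond their limits. With 3 libraries a group and 1 line, dose and time, small changes of low genes are the least certain.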
